A study of Mus musculus with 8 samples.

Results

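The progesterone receptor gene Pgr and 9 genes reported to depend on it in granulosa cells were followed in whole ovaries around the time of ovulation. The 10 genes (Pgr, Adamts1, Snap25, Zbtb16, Prkg2, Pparg, Cited4, Rgcc, Adcyap1 and Abcb1b) were chosen by symbol, and each matched 1 row of the 41591 gene IDs in the count tables. RNA sequencing was done on 8 superovulated C57BL/6 female mice of about 3 weeks, 4 in each of 2 groups. Control mice, littermates of the knockouts, were labelled wild-type and positive for Pgr-Cre, a Cre recombinase under the control of Pgr. DKO mice had a conditional double knockout of Insr, the insulin receptor gene, and Igf1r, the insulin-like growth factor 1 receptor gene; their genotype label does not name the Cre driver. All 8 mice were primed with 4 IU of eCG, a gonadotropin that makes follicles grow, and 48 h later were given 5 IU of hCG, a gonadotropin that replaces the natural luteinizing hormone (LH) surge. The tissue was collected 12 h after that second injection. The labels do not give the copies of the Cre allele in each mouse, and whether that allele itself changes the Pgr counts was not tested.

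The progesterone receptor is a transcription factor that binds DNA once progesterone has bound it. In the ovary the LH surge induces Pgr for a short time in the granulosa cells of preovulatory follicles, and mice that lack the receptor form mature follicles that fail to rupture. Its known targets in these cells include an extracellular protease, parts of the secretion machinery, a cyclic GMP-dependent kinase, a neuropeptide and other transcription factors. In a whole ovary, fewer cells of a type and less RNA per cell cannot be told apart.

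Promoter sequence was examined for the members as a description, and no link between it and their levels was tested. The RefSeq promoter table (build GRCm38.p6) held windows for 7 of the 10 members, and none was found there for Snap25, Zbtb16 and Prkg2. The 250 bases before the transcription start are shown for Pgr itself, for Adamts1 and Adcyap1, which had lower means in DKO, and for Cited4 and Abcb1b, which had higher means. Capitals mark the GC box GGGCGG, to which SP1 factors bind, and TGACG, the core of a cyclic AMP response element, on either strand (CCGCCC and CGTCA on the other).
Pgr, chr9:8899583-8899832, + strand: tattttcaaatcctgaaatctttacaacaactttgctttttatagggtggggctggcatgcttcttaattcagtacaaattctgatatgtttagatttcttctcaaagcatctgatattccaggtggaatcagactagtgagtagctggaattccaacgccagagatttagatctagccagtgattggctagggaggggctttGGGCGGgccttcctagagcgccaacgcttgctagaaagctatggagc
Adamts1, chr16:85803114-85803363, - strand: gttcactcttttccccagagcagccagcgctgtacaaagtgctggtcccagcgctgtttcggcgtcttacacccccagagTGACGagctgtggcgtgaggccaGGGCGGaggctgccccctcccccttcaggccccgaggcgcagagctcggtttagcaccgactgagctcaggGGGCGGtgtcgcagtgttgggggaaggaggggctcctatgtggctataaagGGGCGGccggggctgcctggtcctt
Adcyap1, chr17:93198767-93199016, + strand: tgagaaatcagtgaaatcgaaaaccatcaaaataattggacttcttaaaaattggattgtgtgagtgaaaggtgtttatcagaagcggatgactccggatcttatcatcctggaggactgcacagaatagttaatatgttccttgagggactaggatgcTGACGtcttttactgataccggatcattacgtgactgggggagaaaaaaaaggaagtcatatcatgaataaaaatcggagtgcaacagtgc
Cited4, chr4:120666313-120666562, + strand: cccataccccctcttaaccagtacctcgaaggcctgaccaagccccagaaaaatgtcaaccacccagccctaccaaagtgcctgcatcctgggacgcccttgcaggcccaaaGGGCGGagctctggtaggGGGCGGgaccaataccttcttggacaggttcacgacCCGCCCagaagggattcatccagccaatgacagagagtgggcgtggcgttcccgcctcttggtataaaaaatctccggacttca
Abcb1b, chr5:8797897-8798146, + strand: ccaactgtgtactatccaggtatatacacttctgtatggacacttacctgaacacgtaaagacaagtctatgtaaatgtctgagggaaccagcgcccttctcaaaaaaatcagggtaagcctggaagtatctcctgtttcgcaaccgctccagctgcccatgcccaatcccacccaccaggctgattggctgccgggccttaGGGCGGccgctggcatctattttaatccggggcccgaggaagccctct

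The Pgr window held 1 GC box, 47 bases before the start, in a stretch of 43.6% G and C. Adamts1 held 3 GC boxes, the nearest 25 bases before the start, and 1 TGACG at 170 bases. Adcyap1 held no GC box and 1 TGACG, 91 bases before the start. Cited4 had 3 GC boxes and Abcb1b had 1, so the GC box was present among genes with lower and with higher means in DKO. Counting all starts listed for a member, 6 of the 7 members had a GC box and 3 had TGACG. Over all 32851 windows of this length in the table, 32.7% held a GC box and 17.8% held TGACG. These shares are per window, whereas the 7 members had 10 windows and were counted per gene. The member counts and the shares are therefore not directly comparable. The full palindromic response element of the progesterone receptor was in 3 windows of the whole table and in none of the members, and its inner core ACANNNTGT, which the longer motif contains, was in 5.84% of windows and in none of the members. These letters were searched only within 250 bases of the start. The Pgr gene of the count tables (chromosome 9, 8893175 to 8968611 in GRCm38.p5) begins further upstream than the start used here. The counted Adcyap1 gene (chromosome 17, from 93198908) also begins further upstream. Its start lies within the window shown and before the marked TGACG, so that site is inside the counted gene.

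The libraries held 33145056 to 39257648 counts in genes. Insr was at 162, 158, 140.0 and 160.2 CPM (counts scaled to library size, with TMM factors) in Control 1 to 4 and at 112, 114, 130.0 and 148 in DKO 1 to 4 (log2 fold change -0.30 ± 0.11 SE, adjusted p = 0.226). Igf1r was at 236 ± 28.6 CPM (SD) in Control and 214 ± 22.4 in DKO (-0.14 ± 0.12, edgeR adjusted p = 0.639), so the whole-gene counts check the genotype labels only weakly. Of the 8 libraries, Control 1 and DKO 2 stood apart in markers of the oviduct: the 11 markers summed to 1353 and 864 CPM there and to 16.8 to 51.1 CPM in the other 6. DKO 1 and DKO 2 carried 2.45% and 2.32% of their counts on the ribosomal RNA gene Rn18s-rs5, against 0.113% to 0.263% in the other 6.

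Pgr was scarce at this time. It had 208, 174, 88 and 213 counts in Control 1 to 4, which is 5.59, 4.92, 2.42 and 6.497 CPM, and 44, 79, 49 and 59 counts in DKO 1 to 4, which is 1.12, 2.33, 1.29 and 1.69 CPM. Every Control ovary lay above every DKO ovary, but Control 3 and DKO 2 were close to each other. The mean was 4.86 ± 1.75 CPM (SD, n = 4) in Control and 1.61 ± 0.537 in DKO, a fitted difference of 3.02-fold (log2 fold change -1.59 ± 0.36 SE). With edgeR's quasi-likelihood test and Benjamini-Hochberg adjustment over all 16870 genes tested the adjusted p was 0.0665, short of the threshold of 0.05. The oviduct, which also uses Pgr, had raised markers in Control 1 and DKO 2. DKO 2 had the highest Pgr of the DKO group, while Control 1, with the higher oviduct sum, lay below Control 4 in Pgr. The part of the oviduct in the Pgr counts was not tested. Without Control 1 and DKO 2 the log2 fold change of Pgr was -1.735 ± 0.39 (adjusted p = 0.0959), and without DKO 1 and DKO 2, the libraries high in Rn18s-rs5, it was -1.68 ± 0.44 (adjusted p = 0.2).

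No member passed the edgeR test, in which 0.498% of all genes tested were called lower in DKO and 0.759% higher. At an unadjusted p under 0.05 there were 8 members, 6 lower in DKO (Pgr, Adamts1, Snap25, Zbtb16, Prkg2 and Adcyap1) and 2 higher (Cited4 and Abcb1b), where 6.98% and 8.43% of all genes reached it in those directions. DESeq2 called 4 members at an adjusted p under 0.05, with Pgr (0.000446), Adamts1 (0.0286) and Zbtb16 (3.91e-05) lower and Abcb1b (0.0475) higher. It was run without the edgeR filter and called 1073 of 29539 genes (3.63%). That share is over more genes than the 16870 of edgeR, so the 2 shares are not directly comparable. In 3 members (Pgr, Snap25 and Zbtb16) all DKO ovaries lay below all Control ovaries, and in 1 (Abcb1b) all lay above; of all genes tested, 3.54% and 5.7% were separated in these directions. The median log2 fold change of the 10 members was -1.03, with 8 below 0 and 2 above, and over all genes tested it was -0.0205 with 53.1% below 0. The members and the gene lists below were chosen with earlier results of these data known, so these shares and medians are a description only.

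**Figure D1:**
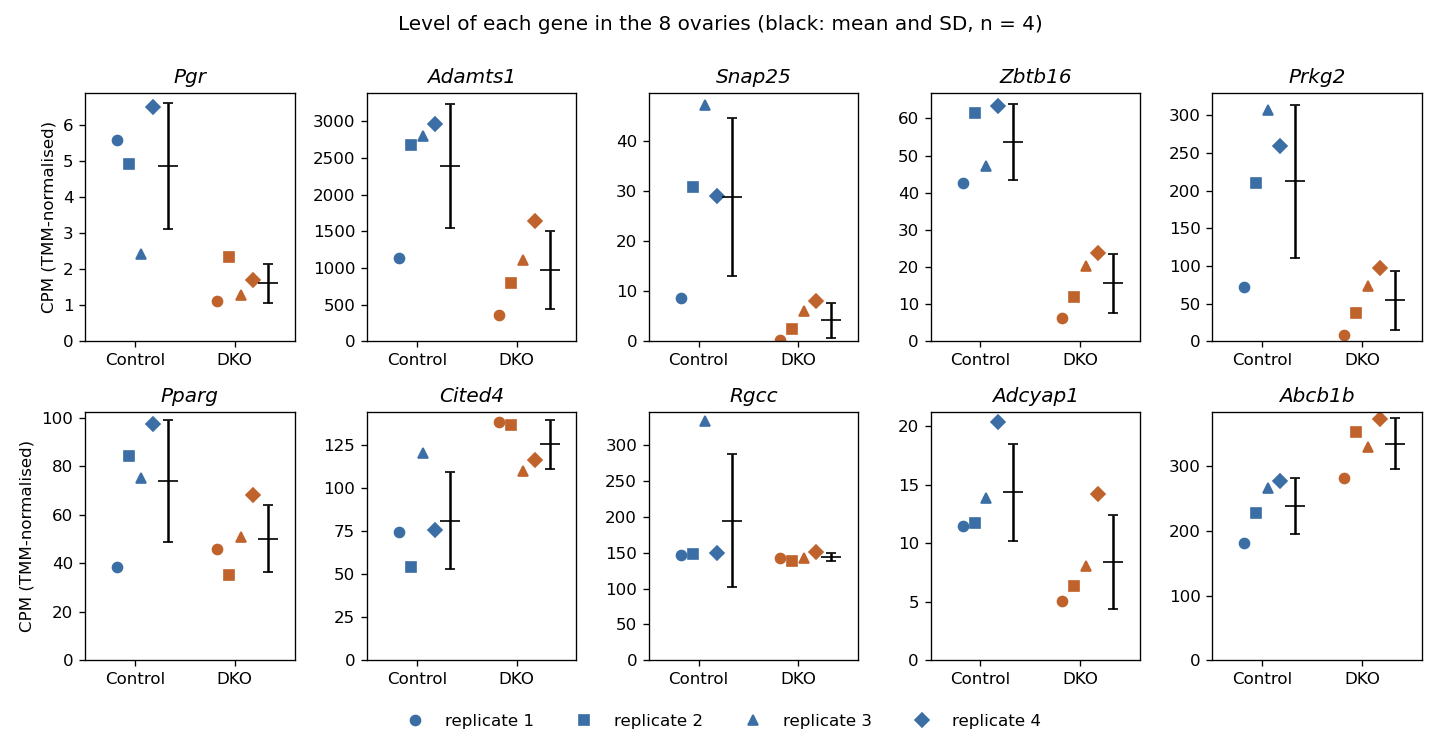
Level of each of the 10 genes in CPM (counts scaled to library size, TMM-normalised, linear axis from 0) in the 4 Control and the 4 DKO ovaries, with 1 symbol per replicate and the group mean and SD in black. The groups do not overlap for Pgr, Snap25, Zbtb16 and Abcb1b, and Control 3 stands alone in Rgcc with 334 CPM.

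Adamts1 (gene ID 11504, chromosome 16, 85793827 to 85803113) encodes a secreted metalloprotease that cuts the proteoglycan versican in the matrix of the ovulating follicle. It was the most abundant member, ranked 27 among all genes by mean CPM. It was at 1137, 2672, 2798 and 2961 CPM in Control 1 to 4 and at 358, 789.6, 1107 and 1635 CPM in DKO 1 to 4. Control 1 lay below DKO 4, so the groups overlapped, while the other 3 Control ovaries were close together. Adamts1 had a log2 fold change of -1.30 ± 0.46 (SE, edgeR adjusted p = 0.212), and -0.78 without DKO 1 and DKO 2.

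Its substrate gene Vcan, which encodes versican, fell in DKO. Vcan was at 1602, 2385, 2310.0 and 2375 CPM in Control 1 to 4 and at 473, 668, 964 and 1097 CPM in DKO 1 to 4 (log2 fold change -1.44 ± 0.26, edgeR adjusted p = 0.035). The call was lost when any of Control 2, Control 4, DKO 1, DKO 2 or DKO 3 was left out, with a log2 fold change of -1.63 to -1.25 and adjusted p of 0.0291 to 0.137 over the 8 single omissions. As with the protease, Control 1 was the lowest of its group and DKO 1 the lowest of all. All 6 genes of the list of versican and versican-cleaving proteases were tested and lay below 0, with a median of -0.72, and Vcan was the 1 that passed. Of the other proteases, Adamts4 (-0.81 ± 0.39), Adamts9 (-0.84 ± 0.32) and Adamts5 (-0.63 ± 0.21) had adjusted p of 0.367, 0.24 and 0.175.

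Snap25 (gene ID 20614, chromosome 2, 136713441 to 136782428) encodes a SNARE protein that brings vesicles to fuse with the plasma membrane, best known from nerve terminals. It had the largest fold difference of the 10, at 6.85-fold lower in DKO in the fit. It was at 8.57, 30.75, 47.1 and 28.9 CPM in Control 1 to 4 and at 0.229, 2.503, 6.09 and 8.04 CPM in DKO 1 to 4. Control 1 was barely above DKO 4, and DKO 1, with 9 counts, was far below the other DKO ovaries. On the log2 scale the difference was -2.78 ± 0.87 (adjusted p = 0.176), with -2.01 without DKO 1 and DKO 2 and -3.42 with limma-voom as the limits over all settings. The levels ranged 35.2-fold within DKO and 5.501-fold within Control. Summed markers of neurons, the other cells known for Snap25, were at 19.2 to 30.7 CPM in Control and 25.7 to 36.2 CPM in DKO, with none of the 6 tested markers called.

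Other genes of membrane fusion lay on both sides of 0. Of 18 SNARE and partner genes, 16 were tested, with 7 below 0, 9 above and a median of 0.032. The 1 that passed was Stx3, a syntaxin of the plasma membrane, which fell from 18.9 ± 2.41 to 10.8 ± 0.751 CPM (-0.80 ± 0.13, adjusted p = 0.0288), with Control at 15.7 to 20.9 CPM and DKO at 9.697 to 11.4. Its call remained only when Control 1 or Control 3 was the library left out, and the adjusted p ran from 0.0249 to 0.132 with 1 library less. The widely expressed relative Snap23 was at 70.3 ± 14.5 and 70.8 ± 12.7 CPM (0.012 ± 0.17, adjusted p = 0.981). Vamp3 and Vamp8 are listed at 0 in every library and were not tested. Their gene models lie both on a chromosome and on another scaffold of the assembly, as do those of all 6 list genes at 0; among the 1633 such genes counted, 52.7% are at 0 in every library, against 27.1% of the other 39958. These zeros are therefore not read as absence of expression, and no member has such a model.

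Zbtb16 (gene ID 235320, chromosome 9, 48651797 to 48836381) encodes PLZF, a zinc finger transcription factor that progestins and glucocorticoids induce in several cell types. It was at 42.6, 61.4, 47.1 and 63.3 CPM in Control 1 to 4 and at 6.42, 11.9, 20.3 and 23.9 CPM in DKO 1 to 4. All 4 Control ovaries lay well above the highest DKO ovary, and Control 1 did not stand out here as it did in Adamts1 and Snap25. Zbtb16 was 3.43-fold lower in DKO (log2 fold change -1.78 ± 0.37, adjusted p = 0.0596), the smallest adjusted p of the 10. It passed in 8 of the 22 other settings, among them DESeq2 and limma-voom (0.0328), and without DKO 1 (0.0453).

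Of 8 genes induced by glucocorticoid or progestin receptors in many cells, 6 were tested, with 4 below 0, 2 above and a median of -0.32. The genes not tested, Fkbp5 and Errfi1, had 2 and 10 counts summed over all libraries. Their gene models are of the same kind as Vamp3, so these counts are not read as low expression. Tsc22d3, a glucocorticoid-induced leucine zipper gene, fell from 97.8, 133, 135 and 155.5 CPM in Control 1 to 4 to 53.3, 56.7, 74.4 and 86.6 CPM in DKO 1 to 4 (-0.94 ± 0.18, adjusted p = 0.0451). Leaving out any library but Control 1 or DKO 4 ended this call, with adjusted p of 0.0289 to 0.167. Klf9 (-0.72 ± 0.24, adjusted p = 0.189) and Per1 (-0.50 ± 0.20, 0.267) were below 0, and Sgk1 (0.53 ± 0.25, 0.353) and Dusp1 (0.46 ± 0.39, 0.647) above.

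Prkg2 (gene ID 19092, chromosome 5, 98929773 to 99038699) encodes the type II cyclic GMP-dependent protein kinase. It was at 72.4, 210.3, 308 and 259.7 CPM in Control 1 to 4 and at 8.78, 37.0, 73.5 and 97.9 CPM in DKO 1 to 4. Control 1 was at about the level of DKO 3, while the other 3 Control ovaries were above all of DKO. Prkg2 had a log2 fold change of -1.97 ± 0.71 (adjusted p = 0.228), -1.29 without DKO 1 and DKO 2, and its range within DKO was 11.1-fold. Of 10 other genes of cyclic GMP production, breakdown and action, none passed the edgeR test, 4 lay below 0 and 6 above, and the median was 0.056. Npr1, a natriuretic peptide receptor that makes cyclic GMP, came nearest, at 103 ± 17.6 CPM in Control and 155 ± 28.8 CPM in DKO (0.58 ± 0.16, adjusted p = 0.122), and Prkg1, the type I kinase gene, was at 9.53 ± 1.86 and 7.81 ± 2.44 CPM (-0.29 ± 0.24, 0.639).

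Adcyap1 (gene ID 11516, chromosome 17, 93198908 to 93206541) encodes PACAP, a neuropeptide that raises cyclic AMP and is made by granulosa cells near ovulation. It was at 11.5, 11.8, 13.8 and 20.4 CPM in Control 1 to 4 and at 5.102, 6.36, 8.04 and 14.2 CPM in DKO 1 to 4. DKO 4 lay above 3 of the 4 Control ovaries. Adcyap1 had a log2 fold change of -0.77 ± 0.32 (adjusted p = 0.28), which ran from -1.14 without DKO 4 to -0.55 without Control 4 when 1 library was left out, and was -0.35 without DKO 1 and DKO 2. Its receptor gene Adcyap1r1 was at 27.2, 24.3, 28.5 and 21.4 CPM in Control 1 to 4 and at 8.86, 20.5, 16.3 and 18.4 CPM in DKO 1 to 4, with no overlap (-0.66 ± 0.23, adjusted p = 0.194). In the list of 7 PACAP and VIP signalling genes, 6 were tested and none passed, 3 on each side of 0.

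Pparg (gene ID 19016, chromosome 6, 115360877 to 115490404) encodes a nuclear receptor for fatty acid ligands. It was at 38.6, 84.4, 75.02 and 97.3 CPM in Control 1 to 4 and at 45.9, 35.3, 50.8 and 68.3 CPM in DKO 1 to 4. Control 2, 3 and 4 were above all of DKO, while only DKO 2 was lower than Control 1. Pparg had a log2 fold change of -0.56 ± 0.29 (adjusted p = 0.399), -0.76 without Control 1 and -0.29 without DKO 1 and DKO 2. Of 14 genes of PPAR receptors, partners and targets, 10 were tested and none passed, 5 on each side of 0, with a median of 0.0013; Ppard, Rxrb and Angptl4 are listed at 0 in every library, with gene models of the same kind as Vamp3, and are not read as absent. Fabp4, a fatty acid binding protein gene and PPARG target, was at 47.0, 68.1, 112 and 87.7 CPM in Control 1 to 4 and at 8.53, 26.2, 20.4 and 34.3 CPM in DKO 1 to 4 (-1.82 ± 0.42, adjusted p = 0.083). Fabp4 and Pparg also mark fat cells, whose 6 markers summed to 27.0 to 58.2 CPM in Control and 34.2 to 49.6 CPM in DKO, with Plin1 called higher except without Control 2, Control 4, DKO 1 or DKO 3 (adjusted p up to 0.0935). The other 4 markers tested lay below 0 (median of the 5 -1.09): Adipoq (-1.09 ± 0.56), Cidec (-1.04 ± 0.50), Cfd (-1.13 ± 0.54) and Retn (-1.71 ± 0.43, adjusted p = 0.0936, all DKO ovaries below all Control ovaries), as did Pparg and Fabp4. The part of fat cells in these levels was not tested.

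Cited4 (gene ID 56222, chromosome 4, 120666563 to 120667820) encodes a coactivator that binds the acetyltransferases CBP and p300, and it is a gene of a single exon block. It was at 74.7, 53.8, 120.1 and 75.6 CPM in Control 1 to 4 and at 138, 136, 109.5 and 116 CPM in DKO 1 to 4. Control 3 lay within the DKO range and the other 3 Control ovaries below it. Cited4 had a log2 fold change of 0.63 ± 0.21 (adjusted p = 0.189), and without Control 3 it was 0.88 and passed (adjusted p = 0.0246). Its relative Cited2 was at 555 ± 171 and 400.02 ± 58.8 CPM (-0.47 ± 0.22, adjusted p = 0.35) and Cited1 at 17.2 ± 10.2 and 27.5 ± 18.2 CPM (0.68 ± 0.64, 0.683). The genes of the acetyltransferases, Crebbp (-0.18 ± 0.10, adjusted p = 0.474) and Ep300 (-0.14 ± 0.16, 0.732), did not pass. In the list of 9 CITED and hypoxia factor genes 8 were tested, with 7 below 0, 1 above and a median of -0.32, and the 1 that passed was Hif1a, described with the other genes downstream of the receptor.

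Abcb1b (gene ID 18669, chromosome 5, 8798147 to 8866314) encodes a P-glycoprotein, a membrane pump that exports drugs and steroids. It was at 182, 228, 266.5 and 277 CPM in Control 1 to 4 and at 283, 354, 330.3 and 373.5 CPM in DKO 1 to 4. DKO 1 was just above Control 4, and the groups did not overlap. Abcb1b had a log2 fold change of 0.49 ± 0.15 (adjusted p = 0.152). Its close relative Abcb1a, which lies beside it on chromosome 5, was at 36.5 to 49.1 CPM in Control and 35.3 to 50.5 CPM in DKO (-0.051 ± 0.14, adjusted p = 0.9). How reads that match both genes were divided between them was not tested. Of 5 other multidrug exporter genes none passed, 4 lay below 0 and 1 above, and Abcc1 had the smallest adjusted p (-0.30 ± 0.098, 0.17).

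Rgcc (gene ID 66214, chromosome 14, 79288750 to 79301635) encodes a regulator of the cell cycle that binds the mitotic kinase CDK1. It was at 147, 149, 334 and 149 CPM in Control 1 to 4 and at 143, 139, 143 and 151 CPM in DKO 1 to 4. Apart from Control 3, the 7 ovaries lay between 139 and 151 CPM. Its log2 fold change of -0.43 ± 0.26 (adjusted p = 0.479) rested on Control 3 and was -0.041 without it. All 6 genes of the step from G2 to M were tested and lay below 0, with a median of -0.13, and none passed; Ccnb1 had the smallest adjusted p (-0.27 ± 0.17, 0.512).

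Levels were set against each other per length, as RPKM (CPM per kilobase of exon) in the counted gene model. In Control the order from high to low was Adamts1 (489.8 ± 173), Rgcc (213 ± 102), Cited4 (64.4 ± 22.2), Abcb1b (54.9 ± 9.95), Prkg2 (33.7 ± 16.1), Pparg (19.2 ± 6.54), Snap25 (10.99 ± 6.02), Zbtb16 (6.75 ± 1.3), Adcyap1 (2.61 ± 0.752) and Pgr (0.32 ± 0.115). Neighbours in this order overlapped in their sample ranges except Rgcc and Cited4, Zbtb16 and Adcyap1, and Adcyap1 and Pgr. The level of Pgr per length rests on a gene model of 15172 exon bases, the longest of the 10. In DKO, Pparg (13.0 ± 3.58) stood above Prkg2 (8.595 ± 6.22), and Zbtb16 (1.97 ± 0.998) above Snap25 (1.61 ± 1.34), with overlapping ranges within each pair. Adamts1 (199 ± 110.1) and Rgcc (158 ± 5.696) overlapped at the top, and Pgr (0.106 ± 0.0354) remained the lowest.

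**Figure D2:**
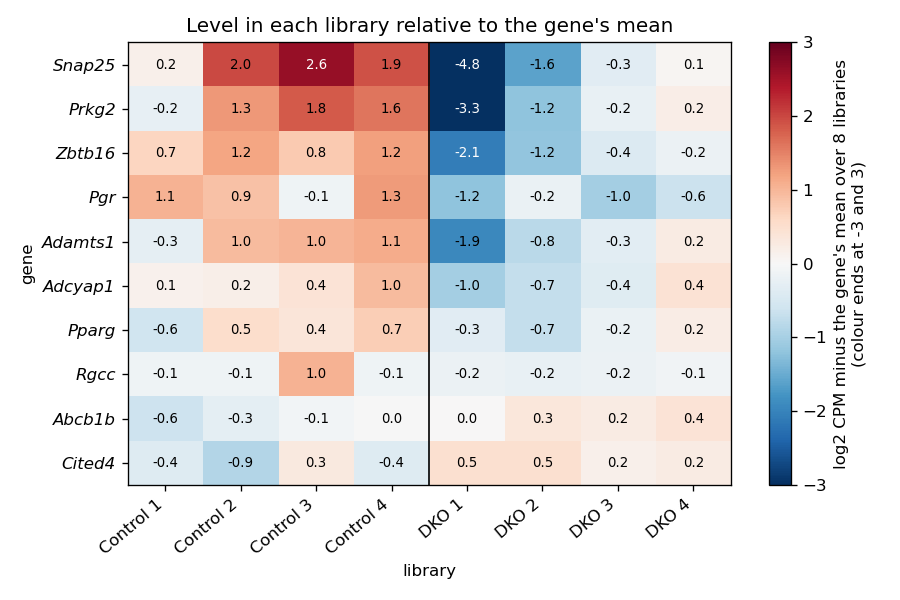
Level of each gene (rows) in each library (columns) as log2 CPM minus the gene's mean over the 8 libraries; red is above and blue below that mean, and the colour scale ends at -3 and 3. DKO 1 is the lowest DKO library in 7 of the 10 genes and Control 1 the lowest Control library in 8 of them, while Pgr is lowest among Control in Control 3, the library highest in Snap25 and Prkg2.

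Within a group, the order of the ovaries was not the same for Pgr and for the other members. Control 3 had the lowest Pgr of the Control group and the highest Snap25, Prkg2, Cited4 and Rgcc. DKO 2 had the highest Pgr of the DKO group but only 2.503 CPM of Snap25 and 37.0 CPM of Prkg2. Among the others, 6 members (Adamts1, Snap25, Zbtb16, Prkg2, Adcyap1 and Abcb1b) were lowest in DKO 1 and highest in DKO 4 within DKO. Control 1 was the lowest of its group in 8 members, the exceptions being Pgr and Cited4.

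Of 5 markers of expanding cumulus cells, which are LH-responsive too, all but Ptger2 were lowest in Control 1 and DKO 1 within their groups. Has2, Ptx3, Tnfaip6, Ptgs2 and Ptger2 summed to 199, 359, 511 and 582 CPM in Control 1 to 4 and to 20.9, 65.4, 235 and 361 CPM in DKO 1 to 4. Control 1 was thus the lowest Control and DKO 1 the lowest DKO library in this sum as well. Ptgs2 was the largest part of the sum in Control, with a mean of 308 ± 125 CPM. Ptger2 was lowest in Control 4 (7.69 CPM) and in DKO 3 (6.73 CPM). None of these 5 markers passed the edgeR test, and their part in the differences of the members was not tested. The 9 granulosa markers summed to 2483 to 3432 CPM in Control and 3037 to 3890 CPM in DKO, with no marker called. Inha was the largest part of that sum, with a mean of 1482 ± 239 CPM in Control and 1640 ± 286 in DKO. Of the 9 markers 6 lay above 0 and 3 below, with a median of 0.11. Foxl2 came nearest (0.58 ± 0.13, edgeR adjusted p = 0.0716), with all DKO ovaries above all Control ovaries.

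The 5 genes closest in pattern to Pgr were named by the root mean square difference of mean-centred log2 CPM over the 8 libraries, among 11565 named genes whose average reached 5 CPM. They were Sema3e, which encodes a secreted semaphorin (0.29), Hipk2, a protein kinase gene (0.368), Mob3b (0.388), Tmod1, which encodes a cap of actin filaments (0.396), and Jcad, a junction protein gene (0.408). Sema3e was at 21.3, 20.4, 16.6 and 27.9 CPM in Control 1 to 4 and at 5.76, 13.1, 7.39 and 11.5 CPM in DKO 1 to 4. Control 3 was its lowest Control and DKO 2 its highest DKO library, an order that its choice by likeness to Pgr favours. Of these 5 genes Tmod1 passed the edgeR test (-1.53 ± 0.27, adjusted p = 0.0337) and was lost without Control 2, Control 4, DKO 2 or DKO 3 (adjusted p up to 0.138); since likeness to Pgr chose it, this is a description. Of the 9 other members, Zbtb16 (0.653) and Adcyap1 (0.669) were nearest to Pgr and Snap25 (1.79) farthest. Among all pairs of members, Cited4 and Abcb1b were the closest at 0.34. This measure is small for genes that vary little. Within DKO, DKO 1 was the highest library in Cited4 and the lowest in Abcb1b.

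The LH pathway that leads to Pgr, and the supply of its ligand, were compared by lists. Of 19 genes of LH signalling and of transcription factors upstream of Pgr, none passed the edgeR test, 11 lay below 0 and 8 above, and the median was -0.02. Egfr, the receptor of the EGF-like factors that relay the LH signal, had the smallest adjusted p: it was at 141, 168, 148 and 206 CPM in Control 1 to 4 and at 78.8, 75.9, 90.1 and 124.5 CPM in DKO 1 to 4, with no overlap (-0.85 ± 0.18, adjusted p = 0.0562). Lhcgr, the LH receptor gene, was at 179.7, 292, 509 and 359.6 CPM in Control 1 to 4 and at 573, 865, 723 and 766 CPM in DKO 1 to 4 (1.13 ± 0.28, adjusted p = 0.0893), also with no overlap. Of 9 genes of progesterone synthesis and breakdown, 1 passed. Hsd3b1, whose enzyme makes progesterone, rose from 2125, 2192, 3513 and 2791 CPM in Control 1 to 4 to 5338, 4120.0, 5411 and 5130.0 CPM in DKO 1 to 4 (0.91 ± 0.18, adjusted p = 0.0477). That call held only with Control 3 left out, the adjusted p running from 0.0135 to 0.185 over the 8 single omissions, and the groups did not overlap. In that list 6 genes lay above 0 and 3 below, with a median of 0.52. The 6 markers of luteal cells, which also make progesterone, summed to 972 to 1369 CPM in Control and 1766 to 2404 CPM in DKO, with Oxtr and Ptgfr called higher except without Control 2, Control 4 or DKO 3 (adjusted p up to 0.0815 and 0.08). Of the 6, 4 lay above 0 and 2 below, Parm1 (-0.60 ± 0.14, adjusted p = 0.083, all DKO ovaries below all Control ovaries) and Akr1c18 (-0.78 ± 0.76, 0.692), with a median of 0.82, and their part in the level of Hsd3b1 was not tested.

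Other receptors for progesterone and related steroids showed no called gene. Of 11 steroid receptors and progesterone binding proteins, 5 lay below 0 and 6 above, with a median of 0.14. The membrane progesterone receptor gene Paqr7 came nearest, at 39.7 ± 2.304 CPM in Control and 57.9 ± 10.9 CPM in DKO (0.54 ± 0.14, adjusted p = 0.0921), with all DKO ovaries above all Control ovaries. The glucocorticoid receptor gene Nr3c1, which acts on the same DNA elements, was at 55.9 ± 7.34 and 54.1 ± 4.79 CPM (-0.049 ± 0.12, adjusted p = 0.884). Of 13 genes of receptor coregulators and chaperones, 12 were tested, none passed, 7 lay below 0 and 5 above, and the median was -0.018. Crebbp had the smallest edgeR adjusted p (0.474). The gene not tested was Fkbp5, whose counts are not read as low expression.

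The list of other genes reported downstream of the progesterone receptor in the ovary held 11 genes, all tested; 10 lay below 0 and 1 above, with a median of -0.97. The 1 that passed was Hif1a, which encodes an oxygen-regulated transcription factor. It fell from 598, 653, 596 and 771 CPM in Control 1 to 4 to 427, 368, 366 and 461 CPM in DKO 1 to 4 (-0.69 ± 0.13, adjusted p = 0.0414). It was called without Control 1 or Control 3, and with any other library left out it was not, the adjusted p running from 0.03 to 0.152. Adam8, a membrane metalloprotease gene, was also separated between groups, at 62.8, 46.0, 40.7 and 33.9 CPM in Control 1 to 4 and at 7.59, 33.7, 15.6 and 12.9 CPM in DKO 1 to 4 (-1.40 ± 0.42, adjusted p = 0.155). The others did not pass, among them the cytokine gene Il6 (-1.67 ± 0.82, adjusted p = 0.386), the protease gene Ctsl (-0.93 ± 0.27, 0.137) and the chemokine receptor gene Cxcr4 (-0.97 ± 0.46, 0.364). Vegfa (0.25 ± 0.17, 0.542) was the 1 gene of the list above 0.

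**Figure D3:**
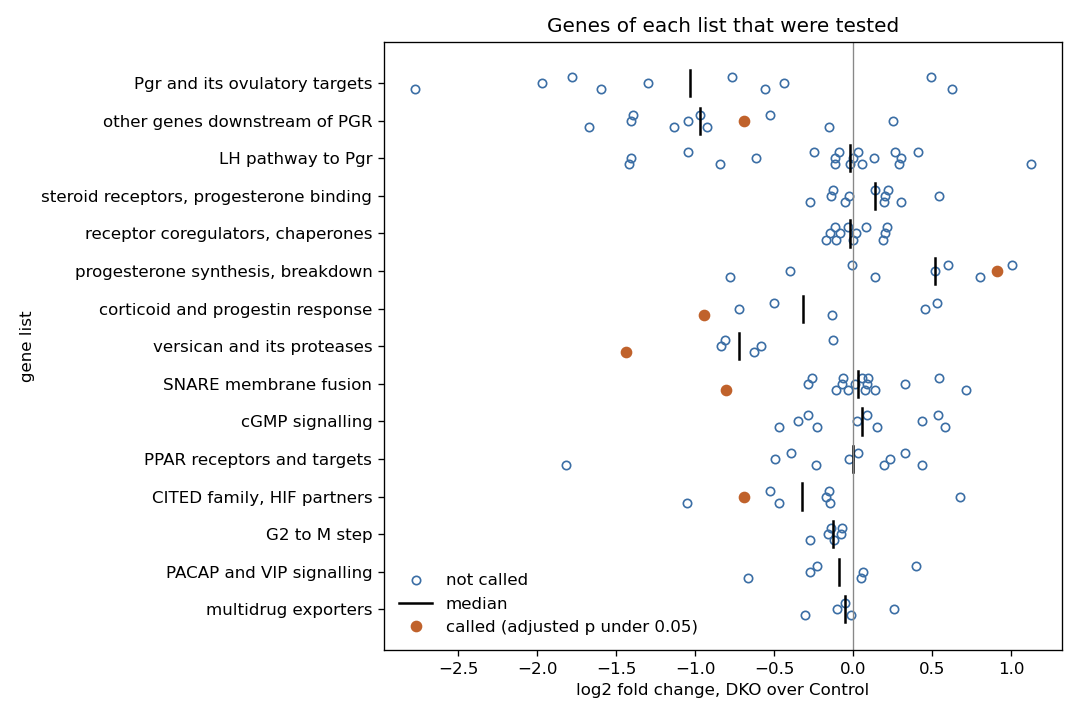
Log2 fold change, DKO over Control, of the tested genes in each of 15 gene lists (rows); open circles did not pass the test, filled circles did, and the black bar is the list's median. The medians of the 10 members and of the other genes downstream of PGR lie at -1.03 and -0.97, and the median of progesterone synthesis and breakdown at 0.52.

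Sample titles carry numbers in a lower and a higher run, whose meaning the labels do not give. The lower run holds Control 1, DKO 1 and DKO 2. In Adamts1, Snap25, Zbtb16, Prkg2 and Adcyap1, DKO 1 and DKO 2 lay below DKO 3 and DKO 4. Control 1 was the lowest Control in each of these genes. The lower run also holds the libraries with raised oviduct markers (Control 1 and DKO 2) and high Rn18s-rs5 (DKO 1 and DKO 2). The part of the run or of these traits in that order was not tested. Within the 5 libraries of the higher run (Control 2, 3 and 4 with DKO 3 and 4) edgeR called 3 members lower, when it called 0.982% of genes. These were Snap25 (-2.32 ± 0.27, adjusted p = 0.0183), Zbtb16 (-1.36 ± 0.18, 0.0236) and Prkg2 (-1.58 ± 0.21, 0.0236). Pgr was at -1.61 ± 0.44 (0.169) and Adamts1 at -1.02 ± 0.21 (0.0867) in these 5 libraries. The other 3 libraries include 1 Control, so no value was computed in them alone. With the run of numbers as a block and all 8 libraries, 3.12% of genes were called, and among the members Pgr (-1.65 ± 0.36, adjusted p = 0.0434), Snap25 (-2.45 ± 0.47, 0.0327) and Zbtb16 (-1.68 ± 0.23, 0.00875) were lower and Abcb1b (0.58 ± 0.13, 0.0477) higher.

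**Figure D4:**
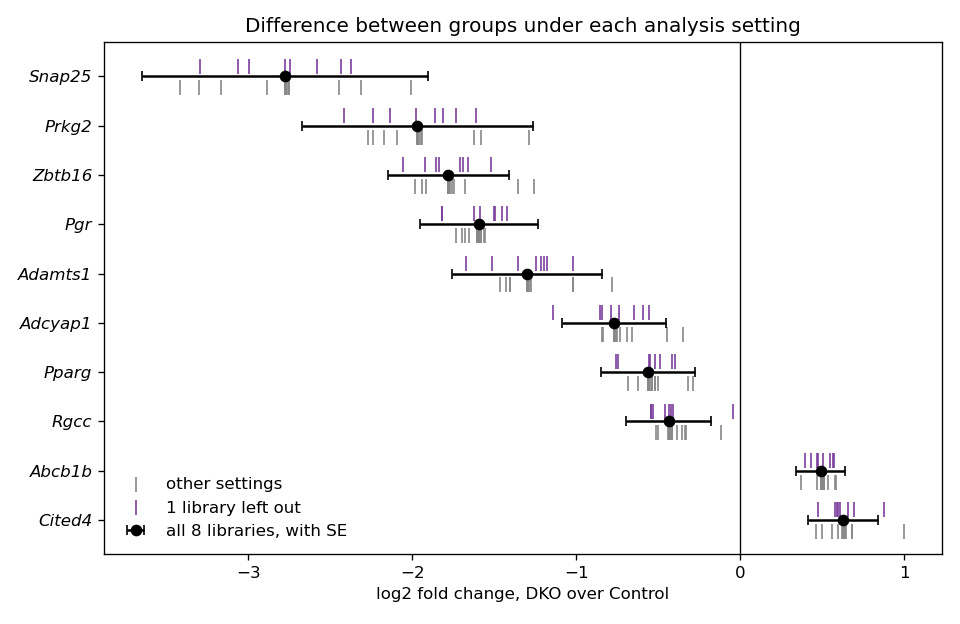
Log2 fold change, DKO over Control, of each of the 10 genes; black points and bars are the edgeR value and SE from all 8 libraries, purple ticks the values with 1 library left out and grey ticks those of the other settings. Every tick of a gene lies on the same side of 0 as its point, and the tick nearest 0 is that of Rgcc at -0.041, without Control 3.

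The number of members called differed between methods. With limma-voom and sample quality weights 7 members were called (9.79% of genes), 5 lower and 2 higher, and with the replicate number as a block also 7 (4.4% of genes), 6 lower and 1 higher. In all 22 other settings each of the 10 members kept the sign of its log2 fold change, 220 values in all. For the 4 members whose groups do not overlap, such a sign is fixed by the values and is no sign of stability. The settings reuse the same libraries, so a kept sign says little for the other members too.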

How the data were processed

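Whole-ovary RNA of 8 mice was sequenced from stranded mRNA libraries, per the labels' protocols. The authors deposited raw counts per gene, with a separate table for each ovary; counting was by featureCounts (Subread 1.5.2) over RefSeq exons of GRCm38.p5 with the reverse-strand setting, per the file headers; the exon length of each gene (another deposited column) gave RPKM. The submitters' processing notes also list Trimmomatic, STAR 2.4.2a and edgeR 3.12.0 with no role. Symbols came from a RefSeq table of GRCm38.p6 and matched 96.9% of 41591 IDs.

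The tools were Python 3.11.15 and, in R 4.3.3, DESeq2 1.42.0, limma 3.58.1 and edgeR 4.0.16. Genes passing filterByExpr (16870, all 10 members among them) were tested by edgeR's quasi-likelihood F-test, two-sided, with TMM factors (0.943 to 1.06), robust dispersions and no covariate, over 4 Control and 4 DKO libraries. P-values were adjusted over all genes by Benjamini-Hochberg, with a threshold of 0.05. The SE is the log2 fold change divided by the square root of F. The fit was tested on simulated data. CPM are TMM-normalised, and log2 CPM used a prior count of 2. No libraries of a group agreed within sampling noise (reduced chi-square 25 to 143).

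The members and lists were chosen with earlier results of these data known. Named genes were the 10 members, Insr and Igf1r, the genes called in each pathway list or, with no call, the one with the smallest adjusted p, and the 5 genes most like Pgr; other genes were chosen after their values were seen. Alternatives were 3 scalings, 2 filters, DESeq2, limma-voom with and without quality weights, non-robust dispersions, blocks for replicate and for title numbers, the 5 libraries of the higher run of title numbers alone, and each library left out. Leaving out DKO 1 with DKO 2, or Control 1 with DKO 2, was chosen after seeing the data.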

Additional observations from a re-analysis of the deposited data

Results flagged for a closer look

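Among 60 groups of 4 ovaries (30 named genes in 2 groups each), 4 held an ovary whose gap to its nearest neighbour took up more of the group's range than Dixon's 95% critical value; chance alone flags about 1 group in 20. The highest share was that of Rgcc in Control, where Control 3 stood above the other 3 with a gap of 0.99 of the range. Vcan in Control had its lowest value in Control 1 (0.904), and Adamts1 in Control had its lowest value in the same library (0.842). Igf1r in DKO had its highest value in DKO 4 (0.888).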

How the results depend on the processing

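With all 8 libraries and no block edgeR called 212 genes, of which 0 were members. The number of genes called was 1073 with DESeq2, 1651 with limma-voom and quality weights, 743 with the replicate block, 526 with the block for title numbers, 64 without DKO 1 and DKO 2, and 97 without Control 1 and DKO 2; leaving out 1 library gave 2 (without Control 2) to 506 (without Control 3). The number of members called was 1 with no filter (Pgr), 1 with at least 1 CPM in 4 libraries (Zbtb16), 1 with limma-voom (Zbtb16), 4 with DESeq2, 7 with quality weights, 7 with the replicate block, 4 with the block for title numbers and 3 in the 5 libraries of the higher run of title numbers. Leaving out 1 library gave 0 to 2 members: Pgr and Cited4 without Control 3, and Zbtb16 without DKO 1. The cause of these differences was not tested. Same-numbered Control and DKO libraries had correlations of deviations from their group means of 0.156, -0.359, 0.312 and 0.468. The highest correlation, 0.638, was between Control 1 and DKO 2, the libraries with raised oviduct markers. These values do not settle whether the numbers pair the samples, and the replicate block is given only as an alternative. No member reversed in any of the 22 settings, which reuse the same libraries, so this is a description only. The median of the members ran from -1.38 (without DKO 4) to -0.58 (without DKO 1 and DKO 2). Of the other genes named, 5 changed sign, none of them called: Snap23 (-0.025) and Nr3c1 (0.016) with quality weights, Igf1r (0.014), Prkg1 (0.087) and Abcb1a (0.16) in the 5 libraries of the higher run, Prkg1 (0.053) and Abcb1a (0.15) without DKO 1 and DKO 2, and Abcb1a (0.044) without Control 1 and DKO 2. With 1 library left out Snap23 ran from -0.11 to 0.15, Abcb1a from -0.16 to 0.027 and Nr3c1 from -0.099 to 0.036. Low counts limit the precision of Pgr, with 44 to 213 in a library, and of Snap25 in DKO 1, with 9.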
